A study of Mus musculus with 8 samples.

Results

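Tissue-resident macrophages of the lung airspaces (alveolar macrophages) were profiled by RNA sequencing, and 8 genes for proteases of the cell surface or matrix, an inhibitor and a receptor of such enzymes were followed through the libraries. The genes were picked by symbol from the 12701 genes of the expression table, and all 8 were found there. They are the secreted matrix metalloproteinases Mmp12, Mmp8 and Mmp19, the membrane metalloproteinase Mmp14, the membrane disintegrin and metalloproteinase Adam8, the metalloproteinase inhibitor Timp2, the urokinase gene Plau and its receptor Plaur. The choice was made with their levels in these same libraries known, in all 3 comparisons, so their differences are given as a description without a p-value. The d35 group held 3 libraries of macrophages from lungs of C57BL/6 mice that had received cultured tumor cells called KP through the tail vein, at day 35 by the labels. The d15 group held 2 libraries of the same kind from day 15. The naive group held 3 libraries from C57BL/6 mice without tumor cells. The growth protocol names KP or KP-GFP cells without saying which were used for a library, and its harvest window closes before the later labelled day. Each library came from 20000 cells sorted by flow cytometry. Nothing in the labels ties a library to 1 animal or to a pool, and the spread behind each p-value is that between these libraries, which may be technical.

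The libraries held 27465745 to 39572173 recovered reads. Levels are given as scaled CPM, the reads of a gene over a library size that the authors had rescaled, as in CPM, and 1 read was worth 0.0247 to 0.0353 scaled CPM. All 12 alveolar macrophage markers on the list, among them Siglecf, Marco and Pparg, were in the table. Their summed level was 34382 to 48269 scaled CPM in d35, 33100 to 37841 in d15 and 24048 to 31593 in naive libraries. Most of each sum was Chil3, at 33501, 28404 and 22080 on average in the same order. By limma, Siglecf was lower in d35 (591 on average) than in naive libraries (719), while Ear2, Car4 and Cd68 were higher. Pparg was lower in d35 (308) than in d15 (514), while Cd68 was higher. Pparg and Ear2 were higher in d15 than in naive libraries (331 for Pparg).

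As background, matrix metalloproteinases are zinc enzymes made as inactive precursors and blocked by tissue inhibitors such as Timp2. Mmp12 is the metalloelastase of macrophages, cuts elastin and is known for its part in emphysema. Mmp14 sits in the plasma membrane, cuts collagen and, together with Timp2, activates the gelatinase Mmp2. Urokinase bound to its receptor turns plasminogen into plasmin, a serine protease that cuts fibrin and activates some metalloproteinases.

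Mmp12, Mmp14 and Adam8 stood far above their naive levels at d35 and, by smaller amounts, at d15. Mmp12 was at 4258, 1476 and 2089 scaled CPM in the d35 libraries, at 80.1 and 66.9 in the d15 libraries and at 18.2, 34.3 and 22.6 in the naive libraries. Every d35 library was above every d15 library, and both d15 libraries were above all naive libraries. The d35 mean of 2608 ± 1462 (SD, n = 3) was 104 times the naive mean of 25.0 ± 8.28 (SD, n = 3), and the d15 mean of 73.5 ± 9.31 (SD, n = 2) was 2.94 times the naive mean. On the log2(scaled CPM + 1) scale the fitted difference was 6.55 ± 0.32 (SE) for d35 against naive, 1.56 ± 0.36 for d15 against naive and 4.99 ± 0.36 for d35 against d15.

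Mmp14 was at 94.9, 28.7 and 67.4 scaled CPM in d35, 9.02 and 6.35 in d15 and 0.925, 2.93 and 1.96 in naive libraries. The 3 groups did not overlap and kept the same order as for Mmp12. Its log2 difference was 4.36 ± 0.38 (SE) for d35 against naive, 1.61 ± 0.43 for d15 against naive and 2.76 ± 0.43 for d35 against d15. Adam8, a sheddase of leukocytes that cuts cell adhesion proteins, was at 62.2, 18.5 and 18.0 scaled CPM in d35, 0.930 and 1.29 in d15 and 0.286, 0.333 and 0.230 in naive libraries. The naive values rest on 8, 13 and 6 reads and the d15 values on 28 and 42 reads, against 1792, 609 and 689 reads in the d35 libraries. Again the groups did not overlap, and replicate 1 stood above the other d35 libraries. The log2 difference of Adam8 was 4.48 ± 0.38 (SE) for d35 against naive, and it was 6.92 with DESeq2, which adds no pseudocount, and 3.91 without d35 replicate 1. Adam8 was 0.71 ± 0.42 higher in d15 than in naive libraries on the same scale, a value that went to 2.01 with DESeq2 and to 0.44 with a pseudocount of 2. Adam8 passed the filter on low values, at least 1 scaled CPM in at least 2 libraries, through its d35 libraries, as only 1 of the 5 other libraries reached 1. In these bulk samples a higher share of cells expressing a gene and more of its RNA per cell cannot be told apart.

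**Figure D1:**
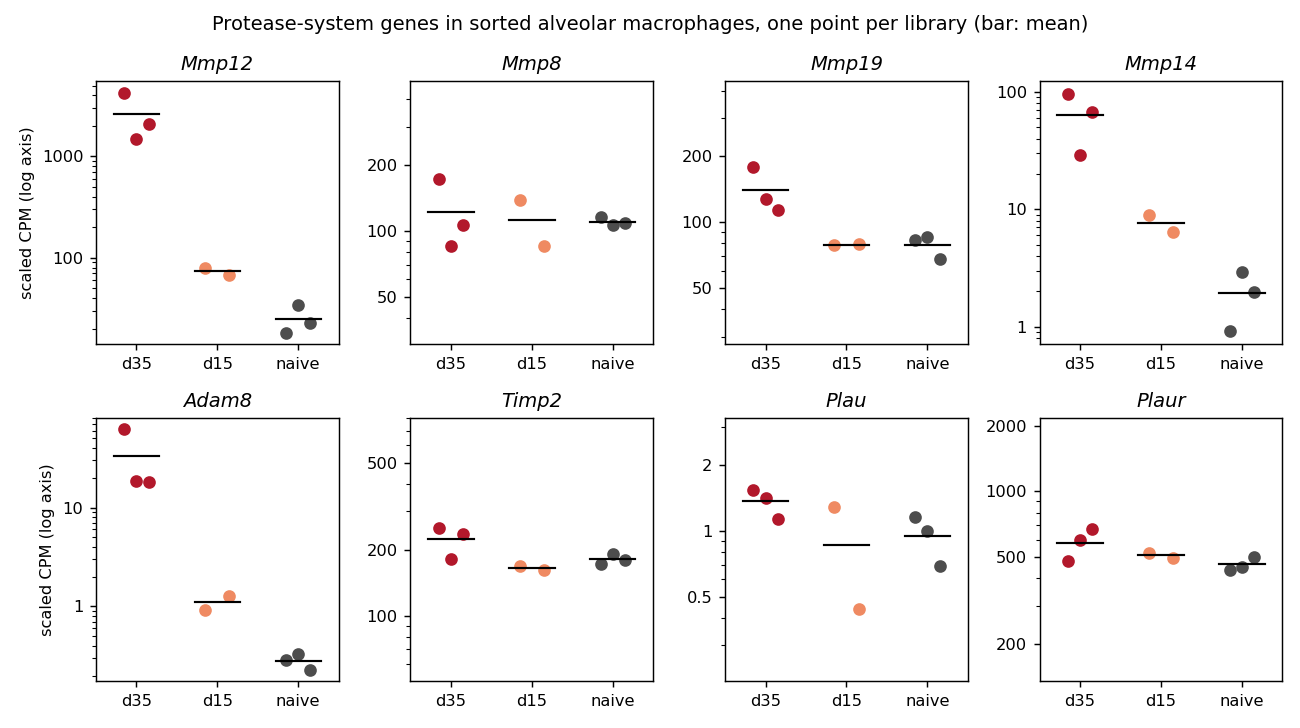
Level of each of the 8 genes in scaled CPM on a log axis, 1 point per library, with d35, d15 and naive libraries from left to right and a bar at each group mean. Mmp12, Mmp14 and Adam8 show 3 separate groups, Mmp19 is set apart only at d35, and the ranges of Mmp8, Timp2, Plau and Plaur at d35 and in naive libraries overlap.

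Sequence before the annotated start was compared for the members that move together and for those that do not. RefSeq windows of build GRCm38.p6 matched 6 of the 8 genes (Mmp12, with 2 annotated starts, Mmp8, Mmp14, Adam8, Timp2 and Plaur). The bases just after the start were found in a GENCODE transcript for Mmp12, Adam8 and Timp2, but not for Mmp8, Mmp14 and Plaur. The Timp2 window and the second Mmp12 window each lie wholly inside the span that GENCODE gives the gene. Motif positions therefore hold for the RefSeq starts only. The 250 bases before each start were searched on both strands for the AP-1 motif TGANTCA, which reads the same on both strands, the ETS-type core GGAAGT, the GC box GGGCGG and the TATA box TATAAA. The last 150 bases before the start are shown for the 3 genes with the largest differences and for Plaur, 5′ to 3′ on the gene's strand, with every motif match in capitals.
Mmp12, first start (chr9:7344247-7344396, + strand): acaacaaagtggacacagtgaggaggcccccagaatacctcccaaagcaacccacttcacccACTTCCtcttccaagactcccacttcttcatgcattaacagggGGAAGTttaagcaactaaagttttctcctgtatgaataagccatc
Mmp12, second start (chr9:7347224-7347373, + strand): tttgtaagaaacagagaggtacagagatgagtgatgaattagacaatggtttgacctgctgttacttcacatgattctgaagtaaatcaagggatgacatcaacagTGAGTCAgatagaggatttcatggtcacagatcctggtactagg
Mmp14 (chr14:54431448-54431597, + strand): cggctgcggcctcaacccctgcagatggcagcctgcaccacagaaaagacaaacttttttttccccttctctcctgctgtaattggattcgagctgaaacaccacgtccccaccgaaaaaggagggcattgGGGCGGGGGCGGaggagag
Adam8 (chr7:139992563-139992712, - strand): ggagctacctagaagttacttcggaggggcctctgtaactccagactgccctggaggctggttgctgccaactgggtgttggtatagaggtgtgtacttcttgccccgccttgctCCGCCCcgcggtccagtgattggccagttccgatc
Plaur (chr7:24462333-24462482, + strand): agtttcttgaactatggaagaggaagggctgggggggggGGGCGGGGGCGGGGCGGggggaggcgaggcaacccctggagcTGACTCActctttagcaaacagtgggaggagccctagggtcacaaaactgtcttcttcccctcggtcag
The first Mmp12 window held the ETS-type core at -88 on the opposite strand and at -45 on the gene's strand, counted from the base before the start as -1. The second Mmp12 window held TGAGTCA at -44 and an ETS-type core at -172, outside the stretch shown. Mmp14 held GC boxes at -19 and -13 and Adam8 a GC box at -35 on the opposite strand, and neither window held the AP-1 motif. Plaur, whose level differed little between groups, held TGACTCA at -69 and GC boxes at -111, -105 and -100, the last pair sharing a base. Among 32851 windows of the same length, 6.75% held the AP-1 motif, 19.7% the ETS-type core, 32.7% the GC box and 12.4% the TATA box. Among the 12845 windows of genes in the expression table the shares were 4.57%, 23.6%, 56.4% and 6.72% in the same order. Mmp8 held a single match, an ETS-type core at -221 on the opposite strand, and Timp2 a single GC box at -37. The AP-1 motif, the GC box and the ETS-type core each occurred before a RefSeq start of a gene with a large difference and of one without. The AP-1 match of Mmp12 lay inside the gene, before its second start. No window of the 6 genes held TATAAA.

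Mmp19 was higher at d35 than in both other groups, whereas Mmp8, also a secreted metalloproteinase, kept about the same mean in all groups and differed in its spread. Mmp19, which acts on basement membrane proteins, was at 179.9, 127 and 113 scaled CPM in d35, 78.6 and 79.6 in d15 and 83.2, 85.7 and 68.1 in naive libraries. All d35 libraries were above all others, while the d15 values lay within the naive range. Its log2 difference was 0.80 ± 0.15 (SE) for d35 against naive and 0.01 ± 0.17 for d15 against naive. Exons of Tmem198b on the opposite strand cover 22.3% of the exon bases of Mmp19, and strand use in counting is not given in the sources used here. Tmem198b itself was at 7.65 to 9.69 scaled CPM in d35, 7.75 to 8.14 in d15 and 8.36 to 9.73 in naive libraries.

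Mmp8, the collagenase best known from neutrophil granules, was at 173, 85.1 and 107 scaled CPM in d35, 139 and 85.2 in d15 and 115, 106 and 108 in naive libraries. The naive libraries were close together and lay inside the range of both tumor groups, and the SD was 37.7% of the mean in d35 and 33.8% in d15, against 4.30% in naive libraries. The log2 difference was 0.08 ± 0.23 (SE) for d35 against naive and -0.02 ± 0.26 for d15 against naive, and both signs turned in some alternatives. Of 12 neutrophil markers 6 were in the table, and their summed level was 53.4 to 101 scaled CPM in d35, 65.2 to 84.0 in d15 and 69.2 to 87.2 in naive libraries. Csf3r gave most of that sum, 49.7, 66.5 and 68.1 on average in the same order. Among the 5 tested, S100a9 averaged 2.79 scaled CPM in d35 and 0.147 in naive libraries, and Ltf 2.72 and 0.0657. Both passed the filter on low values only with their d35 libraries, so no p-value is given for either. S100a8 averaged 7.64 scaled CPM in d35, 3.50 in d15 and 2.55 in naive libraries.

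Timp2 was at 251, 182 and 236 scaled CPM in d35, 169 and 161 in d15 and 173, 192 and 179.8 in naive libraries. The d15 libraries were below all naive libraries, and the d35 range took in part of the naive range. The log2 difference was 0.28 ± 0.11 (SE) for d35 against naive, -0.14 ± 0.12 for d15 against naive and 0.42 ± 0.12 for d35 against d15. Cep295nl lies within Timp2 on the same strand and shares no exon base with it.

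Plau and Plaur, the urokinase gene and its receptor, differed little between groups. Plau was at 1.54, 1.41 and 1.14 scaled CPM in d35, 1.29 and 0.440 in d15 and 1.16, 1.00 and 0.689 in naive libraries, on 14 to 46 reads a library. The ranges overlapped in every comparison. The log2 difference was 0.28 ± 0.22 (SE) for d35 against naive and -0.10 ± 0.25 for d15 against naive. No difference of Plau was detectable at this depth. Plaur, which anchors urokinase to the cell surface, was at 478, 597 and 673 scaled CPM in d35, 525 and 495 in d15 and 439, 452 and 499 in naive libraries. Its log2 difference was 0.32 ± 0.11 (SE) for d35 against naive and 0.14 ± 0.13 for d15 against naive, with overlapping ranges in both.

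Of the 8 genes, 4 passed an adjusted p of 0.05 in the limma fit for d35 against naive (Mmp12, Mmp14, Mmp19 and Adam8), where 16.2% of the 11273 genes tested passed (9.86% higher, 6.32% lower). For d15 against naive 1 passed (Mmp12), against 4.37% of genes tested (2.37% higher, 2% lower), and for d35 against d15 the same 4 as for d35 against naive passed, against 7.39% (4.59% higher, 2.8% lower). Nothing is read from these counts, since the genes were chosen with these comparisons known. In 4 of the 8 every d35 library was above every naive library, which held for 20.7% of genes tested, and in 0 of 8 below (15.9%). In 3 of 8 both d15 libraries were above all naive libraries (25.9% of genes tested), in 1 of 8 below them (22.3%), and in 5 of 8 all d35 libraries were above both d15 libraries (19% of genes tested) and in 0 of 8 below (19.5%). The median log2 difference of the 8 genes was 0.56 for d35 against naive, 0.07 for d15 against naive and 0.61 for d35 against d15, beside -0.002, 0.01 and -0.003 over all genes tested. The comparisons with naive libraries share those libraries. For d15 against naive, the authors' deposited table gave log2 fold changes of 1.53 for Mmp12 and 1.90 for Mmp14. The other 5 genes listed in the authors' deposited table (Mmp8, Mmp19, Timp2, Plau and Plaur) had values between -0.16 and 0.12.

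**Figure D2:**
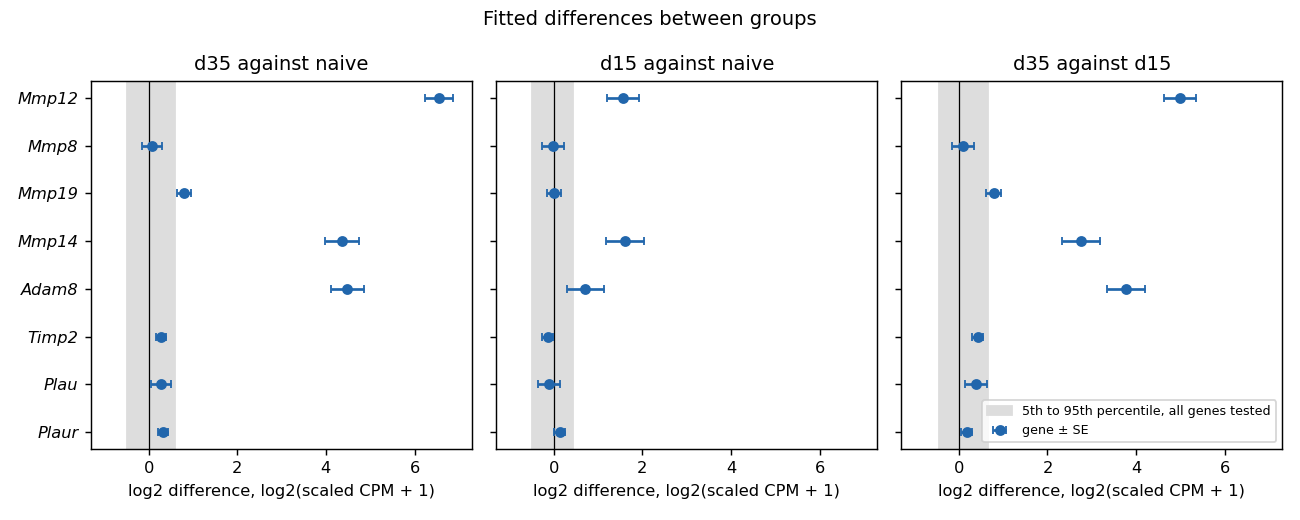
Fitted log2 differences of the 8 genes with their standard errors for d35 against naive, d15 against naive and d35 against d15, with a grey band from the 5th to the 95th percentile of all genes tested. Mmp12, Mmp14, Adam8 and Mmp19 lie to the right of the band at d35, and at d15 Mmp12, Mmp14 and Adam8 do.

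Levels of different genes were compared per kb of the longest protein-coding transcript, 1.51 kb for Plaur and 3.61 kb for Mmp12. In naive libraries Plaur was highest at 307.9 ± 20.9 scaled CPM per kb (SD, n = 3), followed by Timp2 at 48.9 ± 2.63 and Mmp8 at 45.4 ± 1.95, which overlapped, then Mmp19 at 23.2 ± 2.80 and Mmp12 at 6.94 ± 2.29. Mmp14 at 0.598 ± 0.309 and Plau at 0.406 ± 0.102 overlapped, and Adam8 was lowest at 0.0908 ± 0.0167. At d35 Mmp12 was the highest in all 3 libraries, at 723 ± 405 scaled CPM per kb, and Plaur followed at 387 ± 65.0, although the ranges of the 2 genes over the libraries overlapped. Mmp12 made up 67.8%, 43.4% and 48.5% of the summed level per kb of the 8 genes in the d35 libraries, 4.44% and 4.11% in d15 and 1.21%, 2.20% and 1.39% in naive libraries. By level per kb it ranked 60 of 12639 genes in d35, 3365 in d15 and 6338 in naive libraries. Mmp14 reached 19.7 ± 10.3 per kb at d35 and Adam8 10.6 ± 8.14, with overlapping ranges, below Timp2 at 60.2 ± 9.80. At d15 Mmp12 was at 20.4 ± 2.58 scaled CPM per kb (SD, n = 2), just below Mmp19 at 23.2 ± 0.222, and Plaur was again highest at 338 ± 14.0.

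**Figure D3:**
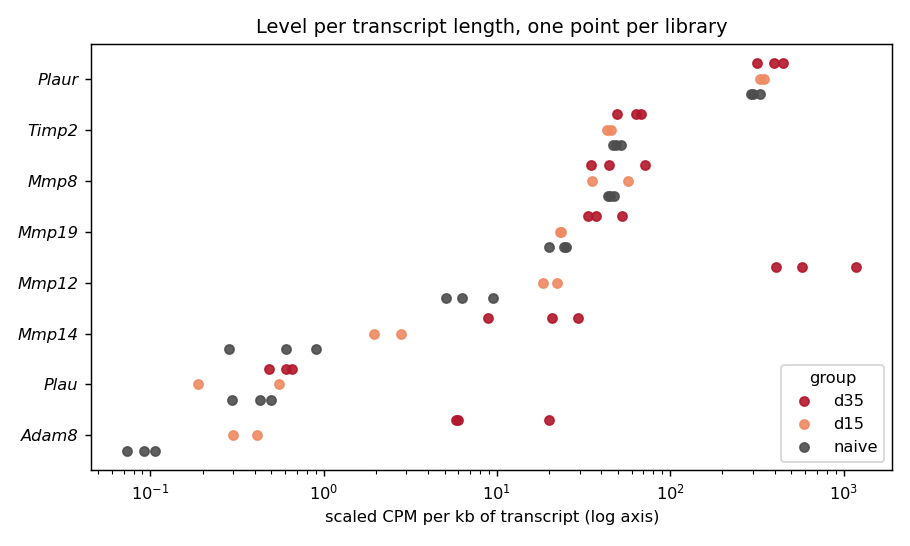
Level per kb of transcript on a log axis for each gene and library, with d35 above d15 and naive within a gene and genes ordered by their naive mean. Mmp12 moves from the middle of the order in naive libraries to the top at d35, while Plaur lies between 292 and 447 scaled CPM per kb in all libraries.

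The d35 libraries differed among themselves. Replicate 1 was the highest d35 library for 7 of the 8 genes, Plaur being the exception. The lowest was replicate 2 for 4 genes, replicate 3 for 3 and replicate 1 for 1. The ratio of the highest to the lowest d35 library was 2.88 for Mmp12, 3.31 for Mmp14 and 3.45 for Adam8, and 1.38 for Timp2 and 1.41 for Plaur. Replicate 1 also had the highest summed level of alveolar macrophage markers, which was mostly Chil3. The sum was 48269 scaled CPM there (Chil3 41613), against 34382 (Chil3 26561) and 38894 (Chil3 32329) in the other d35 libraries. The sum of monocyte and interstitial macrophage markers in replicate 1 was 2200 scaled CPM, against 1977 and 2022. In that second list Ccr2, C1qa, C1qb and C1qc rose at d35 over naive, by limma at an adjusted p of 0.05. C1qb averaged 99.3 scaled CPM in d35, 7.29 in d15 and 1.26 in naive libraries, and the monocyte marker Ly6c2 averaged 0.662, 0.335 and 1.04. Fibroblast markers, all 10 in the table, summed to 513 to 628 scaled CPM in d35, 368 to 405 in d15 and 374 to 437 in naive libraries, of which Gsn gave 546, 379 and 371 on average. Epithelial and tumor markers summed to 1203 to 1335 scaled CPM in d35, 1243 to 1360 in d15 and 1443 to 1446 in naive libraries. Within that list Krt8 and Krt18 were higher at d35 than in naive libraries, and Epcam fell. Krt8 averaged 15.0 scaled CPM in d35, 0.314 in d15 and 0.262 in naive libraries. Both keratin genes passed the filter on low values only with their d35 libraries, so no p-value is given for either. Endothelial markers fell in 8 of 10 cases at d35. The part of other cells in the differences of Mmp12, Mmp14, Adam8 and Mmp19 was not tested.

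The genes with the most similar profiles were sought by the root mean square difference of log2 profiles over the 8 libraries, each centred on its naive mean, among 8792 genes whose mean log2 level reached 3. Nearest to Mmp12 were the class Ib gene H2-M2 at 0.457, the complement gene C1qb at 0.818 and the chemokine gene Ccl17 at 0.885. H2-M2 averaged 135 ± 97.8 scaled CPM in d35 (SD, n = 3), 4.33 ± 0.933 in d15 (SD, n = 2) and 0.771 ± 0.192 in naive libraries (SD, n = 3). Nearest to Mmp14 was C1qb at 0.683, and nearest to Adam8 was Pla2g7, a phospholipase gene, at 0.224. Nearest to Mmp19 was Psap, which encodes the lysosomal protein prosaposin, at 0.124. For the other members the nearest genes were Scel for Mmp8 at 0.130, Tifa for Timp2 at 0.0582, Ppfia4 for Plau at 0.102 and Rbm39 for Plaur at 0.0558.

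Mmp12 and Mmp8 lie 189 kb apart in the metalloproteinase cluster of chromosome 9 (GENCODE M21 on GRCm38, 7272514 to 7699585), which holds 10 Mmp genes. Mmp12 spans 7344381 to 7369499 and Mmp8 7558456 to 7568485, both on the + strand and protein coding. Only Mmp13 and Mmp3 of the remaining cluster genes were in the expression table. Mmp3 was below 1 scaled CPM in every library and was not tested. The other genes lie at 139978932 to 139992562 on chromosome 7 (Adam8), 24462484 to 24475968 on chromosome 7 (Plaur), 54431612 to 54445364 on chromosome 14 (Mmp14), 20836660 to 20843385 on chromosome 14 (Plau), 128790910 to 128800824 on chromosome 10 (Mmp19) and 118301069 to 118355740 on chromosome 11 (Timp2). Of Mmp12, 2.17% of the exon bases lie under exons of Mmp1b on the opposite strand.

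Around these 8 genes, 122 further genes of the same systems were listed by role, of which 82 were in the table and 69 passed the filter on low values. For d35 against naive, 15 rose, 9 fell and 45 did not pass an adjusted p of 0.05 in the limma fit, a share of 34.8% against 16.2% of all genes tested, and the list median was 0.04 on the log2 scale against -0.002. The lists were written with earlier results of these data known. Nothing is therefore read from the share called in this or the other comparisons. Of the 3 tested secreted metalloproteinases, the collagenase gene Mmp13 rose to 18.2 ± 13.3 scaled CPM in d35 (SD, n = 3), against 0.0504 ± 0.0380 in naive libraries (SD, n = 3). These values rest on 1709 and 3 reads, and the log2 difference of 3.98 depends on the pseudocount. Mmp13 passed the filter on low values only with its d35 libraries, so no p-value is given for it. The gelatinase A gene Mmp2 rose to 4.90 ± 2.07, against 1.65 ± 0.104 (log2 difference 1.09, limma adjusted p = 0.0164). Mmp9, the gelatinase of neutrophils and activated macrophages, is named after its values were seen. It was at 8.80, 0.259 and 3.46 in d35 and 0.0168, 0.556 and 0.512 in naive libraries and was not called. Like Mmp13, Mmp9 passed the filter on low values only with its d35 libraries, so no p-value is given for it.

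Among 8 tested ADAM genes, Adamdec1, a secreted family member of macrophages and dendritic cells, rose to 79.1 ± 38.8 scaled CPM in d35, against 0.289 ± 0.236 in naive libraries (log2 difference 5.83, limma adjusted p = 1.11e-05). Adam28 also rose (2.28 ± 0.772 in d35 against 0.0274 ± 0.0223 in naive libraries, on 229 and 1 reads), and Adam22, which lacks protease activity, fell by 0.74 on the log2 scale. The inhibitor gene Timp1 rose to 1.51 ± 0.774, against 0.271 ± 0.0595, on 144 and 25 reads. Like Adam28, Timp1 passed the filter on low values only with its d35 libraries, so no p-value is given for either. In the plasminogen system, the tissue activator gene Plat rose to 5.83 ± 3.52, against 1.15 ± 0.471 (limma adjusted p = 0.013), and the plasminogen receptor gene Plgrkt rose to 148 ± 11.4, against 119 ± 9.23. Lrp1, the receptor that clears protease and inhibitor complexes, fell by 0.29 on the log2 scale, a sign that turned with the transcript length correction (0.03). Neither tested membrane metalloproteinase and none of 4 tested ADAMTS genes passed.

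Partners of these enzymes changed in both directions at d35. The tetraspanin gene Cd63, whose protein binds Timp1, rose to 414 ± 97.0 scaled CPM in d35, against 135 ± 20.3 in naive libraries (limma adjusted p = 0.000215), and Bsg, the metalloproteinase inducer basigin, by 0.32 on the log2 scale. Of the iRhom genes that escort Adam17, Rhbdf2 rose by 0.36 and Rhbdf1 fell by 0.37. The serpin gene Serpina3g rose to 23.1 ± 10.5, against 0.442 ± 0.339 (limma adjusted p = 6.21e-05), and the matriptase gene St14 to 4.57 ± 1.77, against 0.962 ± 0.201, while Dpp4 and the elastase inhibitor gene Serpinb1a fell by 0.73 and 0.35. Matrix proteins that these enzymes cut rose in 3 of 13 cases, Spp1 (osteopontin, 2406 ± 543 against 776 ± 101, limma adjusted p = 0.000287), Fn1 (fibronectin) and Thbs1 (thrombospondin), and fell in 1, Col3a1. No AP-1 or ETS factor gene of 15 rose, and Jun, Fosl2 and Ets1 fell, by 1.18, 0.33 and 1.29 on the log2 scale. Jun is also on the list of dissociation response genes, whose sum was 2004 to 4484 scaled CPM in d35, 5167 to 6175 in d15 and 2535 to 6222 in naive libraries. Of the 15 genes that rose, 4 (Mmp13, Adam28, Timp1 and St14) passed the filter on low values only with their d35 libraries. Calls of 9 of the 24 genes held under every setting that tested them (Mmp13, Adamdec1, Adam28, Adam22, Serpina3g, St14, Spp1, Cd63 and Ets1), and of these Adam28 and St14 were not tested with a filter of 5 scaled CPM in 2 libraries. Leaving out naive replicate 2 gave 10 calls in place of 24, naive replicate 3 gave 13, d35 replicate 1 gave 15 and d35 replicate 3 gave 14.

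Against naive libraries, d15 libraries had 1 of the 69 genes higher, 8 lower and 60 not passing (13.0% called, against 4.37% of all genes tested). Serpina3g rose to 6.38 ± 0.427 scaled CPM in d15 (SD, n = 2), against 0.442 ± 0.339 in naive libraries (limma adjusted p = 0.00852). Adam17, the sheddase of tumor necrosis factor, fell to 219 ± 28.7, against 302 ± 13.3 (limma adjusted p = 0.0398). Fosl2 fell to 56.3 ± 0.972, against 95.5 ± 2.40 (limma adjusted p = 0.0017). Mmp15, Adamts10, Lrp1, Rhbdf1, Col3a1 and Ets1 fell by 0.96, 0.53, 0.39, 0.52, 1.75 and 1.21 on the log2 scale. Mmp13 was at 0.735 ± 0.740 scaled CPM in d15 on 6 and 41 reads and was not called. In the authors' deposited table, 7 of 58 listed genes had an adjusted p under 0.05 (Adam17, Col3a1, Ets1, Fosl2, Lrp1, Rhbdf2 and Serpina3g), 12.1% against 3.61% of all 10778 genes there. Only the call of Fosl2 held under every setting, and in place of 9 calls there were 2 on omitting d15 replicate A or either of naive replicates 2 and 3, 1 on omitting d15 replicate B, and 15 on omitting d35 replicate 3.

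Between the tumor times, 15 of the 69 genes rose, 3 fell and 51 did not pass for d35 against d15 (26.1% called, against 7.39% of all genes tested). Adamdec1 was at 79.1 ± 38.8 scaled CPM in d35 (SD, n = 3), against 2.24 ± 0.840 in d15 (SD, n = 2; limma adjusted p = 0.000128). Mmp13 was at 18.2 ± 13.3 in d35, against 0.735 ± 0.740 in d15, and Mmp2 at 4.90 ± 2.07, against 1.02 ± 0.125 (limma adjusted p = 0.00986 for Mmp2). Adam17 and the membrane metalloproteinase gene Mmp15, both lower in d15 than in naive libraries, were higher in d35 than in d15 (325 ± 35.8 against 219 ± 28.7, and 1.31 ± 0.352 against 0.153 ± 0.148). Jun, Serpinb1a and Adam22 fell. Calls of 6 of the 18 genes held under every setting that tested them (Mmp13, Adamdec1, Cd63, Rhbdf2, Spp1 and St14, the last not tested with the filter of 5). Among the 18, Mmp13, St14 and Adam28 passed the filter on low values only with their d35 libraries. The count went to 9 without d15 replicate A and to 7 without d15 replicate B.

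**Figure D4:**
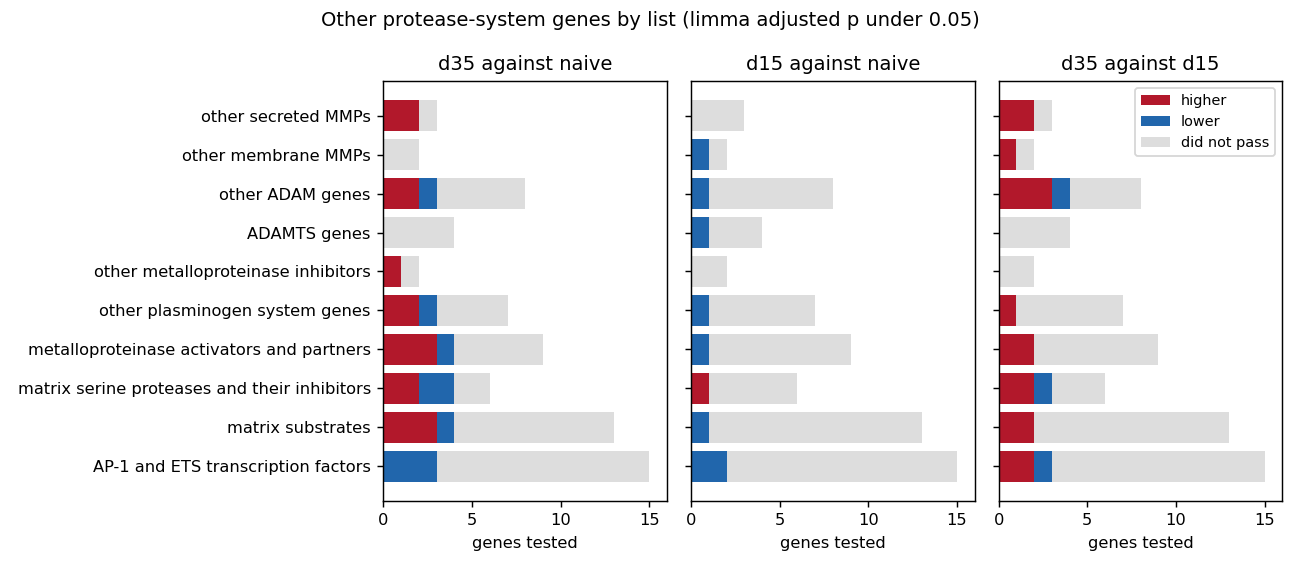
Number of genes that were higher (red), lower (blue) or did not pass (grey) in each list of further protease-system genes, for d35 against naive, d15 against naive and d35 against d15. At d35 against naive red bars appear in 7 of the 10 lists, and at d15 against naive the only red bar is Serpina3g in the list of matrix serine proteases and their inhibitors.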

How the data were processed

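RNA from sorted alveolar macrophages was made into cDNA from 1 ng per library with a SMART-Seq v4 low-input kit and sequenced on an Illumina NextSeq instrument, per the labels' protocols. The submitters' processing notes name STAR 2.5, build mm10 and edgeR. The counting program, annotation and strand setting: not given in the sources used here. The authors' deposited expression table holds a scaled signal per gene. Its values fit the CPM of reads + 0.5 over a rescaled library size, and 100% came out as whole reads within 0.001. Their other deposited table sets d15 against naive and gives, per the file headers, a log2 fold change, a score from a likelihood-ratio test and a p-value for each gene. The d15 columns carry other numbers than the sample titles and were assigned to the group only, as replicates A and B.

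Log2(value + 1) was fitted with limma 3.58.1 (R 4.3.3) with an intensity trend, over 11273 genes with at least 1 in at least 2 of the 8 libraries. The group was the only term (residual df 5, prior df 5.72), and p-values were adjusted by Benjamini-Hochberg. Where a group is left with 1 library, it is assumed to vary like the others. Alternatives were 2 pseudocounts, 2 filters, edgeR 4.0.16 and DESeq2 1.42.0 on recovered reads, fits of 2 groups, a replicate block, a transcript length correction and leaving out each library. The fit was tested on simulated data. The members and lists were chosen with earlier results of these data known. Named beyond the members were up to 4 genes a list and comparison, by smallest adjusted p.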

Additional observations from a re-analysis of the deposited data

Results flagged for a closer look

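The direct difference between d35 and d15, into which the naive means do not enter, passed the limma test for 18 of the further protease-system genes. On the log2 scale it was 4.51 for Adamdec1, 3.33 for Mmp13, 1.80 for St14, 1.72 for Thbs1, 1.66 for Plat, 1.60 for Spp1, 1.59 for Serpina3g, 1.56 for Adam28, 1.52 for Cd63 and 1.48 for Mmp2. It was 1.00 for Mmp15, 0.84 for Rhbdf2, 0.57 for Adam17, 0.42 for Fosl2 and 0.34 for Fli1. It was -1.69 for Jun, -0.61 for Adam22 and -0.56 for Serpinb1a. Of these, 6 kept their call under every setting that tested them, St14 being untested with the filter of 5 in 2 libraries. Mmp13, St14 and Adam28 entered the test only through their d35 libraries. For Timp2 every d35 library lay above the naive mean and both d15 libraries below it, a log2 difference of 0.42 between the times that did not pass the limma threshold. One d35 library, replicate 2, was at 1.00 times the naive mean.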

How the results depend on the processing

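Of the 8 genes, Mmp12, Mmp14, Adam8 and Timp2 kept the direction of their difference in every comparison and setting that gave them a value. The sign turned for Mmp8 in all 3 comparisons and for Mmp19, Plau and Plaur for d15 against naive. The count of all genes called for d15 against naive was 493, against 1451 with DESeq2, 1454 with only the 2 groups compared in the fit, and 11 to 1084 on leaving out each library. For d35 against naive it was 1824, against 1175 with the transcript length correction and 628 to 2288 on leaving out each library. For d35 against d15 it was 833, against 1368 with DESeq2, 411 with only the 2 groups, and 184 to 1046 on leaving out each library. Of the other protease-system genes, 9 were called for d15 against naive, against 20 with DESeq2, 15 with only the 2 groups, 5 with the length correction and 1 to 15 on leaving out each library. For d35 against naive 24 were called (10 to 24 on leaving out each library), and for d35 against d15 18 were (7 to 22). Only Lrp1, for d35 against naive, turned its sign (0.0302 with the length correction, against -0.29), and the cause of these shifts was not tested. With the replicate block, d35 against naive had 1461 genes called and 21 of the other protease-system genes, the calls of Dpp4, Fn1, Lrp1, Rhbdf1, Serpinb1a and Timp1 being lost. Deviations of same-numbered libraries correlated at -0.00708, -0.0456 and 0.147, so the numbers are not taken to pair them. No paired analysis was possible for comparisons with d15 because its columns carry other numbers than the titles. With 2 or 3 libraries a group and 14 to 46 reads for Plau and 6 to 42 for Adam8 outside d35, counting error limits those values.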
